A study of Mus musculus with 3 samples.

Results

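The collagen chain genes of mouse skin were followed through 2 droplet single-cell libraries, one labelled control and one labelled metformin. Members were the genes whose symbol in the deposited files has the form Col, a number, a and a number, without Col7a1 and Col17a1, the anchoring fibril and hemidesmosome collagens. This gave 42 of the 31053 genes in the count matrices: 11 chains of fibrillar collagens, 9 of fibril-associated collagens, 6 of beaded filament collagens, 6 of basement membrane network collagens, 3 of short chain network collagens, 3 of transmembrane collagens, 2 of multiplexins and 2 others. Each of the 42 had at least 1 unique molecular identifier (UMI, the tag that marks 1 captured transcript), 27 had at least 100 UMIs over the kept cells of both libraries and 15 had fewer.

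Collagens are the main structural proteins of the dermis, and each molecule is a triple helix of 3 chains. Collagens I, III and V form the banded fibrils of the dermis, collagen VI forms beaded microfilaments around cells, and collagen IV forms the sheet-like network of basement membranes beneath the epidermis and around vessels, nerves and smooth muscle. Fibril-associated collagens coat or bridge fibrils, multiplexins sit at the border of basement membranes, and transmembrane collagens are held in the plasma membrane of the cell that makes them.

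The series, by its title, addressed hair regeneration under Shi-Bi-Man, a natural product. It holds 1 skin library for each of the agents control, Shi-Bi-Man and metformin. The mice of each group were C57BL/6, at post natal age 7 weeks. Expression in the Shi-Bi-Man library was not analysed here. The labels give no dose, route, time of treatment or number of animals per library. With 1 library per agent no difference between agents could be tested: each value below compares 2 libraries, and the 95% intervals in parentheses cover counting error only (exact Poisson, binomial or conditional binomial, without spread between animals or between cells). A ratio is always metformin over control.

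After filtering and doublet removal, 9688 control cells with a median of 3557 UMIs and 8827 metformin cells with a median of 5568 UMIs were kept. Both libraries were clustered together with the collagen genes left out, so that no chain took part in defining a class. Of 34 clusters, 33 could be named from marker lists that hold no collagen gene, and names below mean "like" that cell type. Fibroblasts formed 5 clusters (4020 control and 1472 metformin cells in all), which are called by the 3 genes that led each over the other fibroblasts. They were Aldh3a1 Cyp2f2 Cpz (1357 and 440 cells), Cxcl12 Pltp Alpl (1192 and 326), Coch Tagln Dkk2 (809 and 360), Smpd3 Inmt Sfrp4 (334 and 210) and F13a1 Igfbp2 Stc1 (328 and 136). Dermal sheath cells, with Lrrc15, Tnmd and Acan, numbered 228 control and 353 metformin cells. Dermal papilla cells lay in a cluster with Hhip (80 and 302 cells) and one with Notum (264 and 16), so the papilla is described within each. Vessels were represented by an Rgs5 pericyte cluster (125 and 132), vascular endothelium (125 and 178) and lymphatic endothelium (65 and 76). There was also an Actg2 smooth muscle cluster (33 and 35). The marker lists do not tell smooth muscle of vessels from other smooth muscle, so its place in the skin was not tested. The fibroblast share of cells was 41.5% in control and 16.7% in metformin, and 18 control and 902 metformin cells carried hair matrix, shaft or inner root sheath markers. The libraries therefore differ in cell makeup, and levels are given within a class as UMIs per 1000000 UMIs of that class (CPM). Reads came from the 3′ end of transcripts, so CPM were not divided by gene length, and values of 2 different chains are set against each other below only to ask whether their ratio is the same in other cell types.

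The promoters of 4 chains are shown first, because the results turn on how partner chains are used together. Col4a1 and Col4a2 encode the partner chains of the ubiquitous collagen IV and start head to head on chromosome 8, 21 bases apart. Col1a2 encodes the second chain of collagen I, and Col3a1 the only chain of collagen III. The windows are from RefSeq on GRCm38.p6 and run 300 bases, from 250 before the start site, 5′ to 3′ on the gene's strand. Capitals mark CCAAT or, for the opposite strand, ATTGG, the core of the CCAAT box.
Col4a1 (chr8:11312777-11313076, minus strand): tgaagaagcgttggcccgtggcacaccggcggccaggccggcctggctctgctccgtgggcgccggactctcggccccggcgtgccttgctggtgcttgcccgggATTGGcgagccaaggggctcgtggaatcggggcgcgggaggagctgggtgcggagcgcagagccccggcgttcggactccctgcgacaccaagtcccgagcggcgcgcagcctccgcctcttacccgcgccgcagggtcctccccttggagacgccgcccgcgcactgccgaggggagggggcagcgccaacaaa
Col4a2 (chr8:11312555-11312854, plus strand): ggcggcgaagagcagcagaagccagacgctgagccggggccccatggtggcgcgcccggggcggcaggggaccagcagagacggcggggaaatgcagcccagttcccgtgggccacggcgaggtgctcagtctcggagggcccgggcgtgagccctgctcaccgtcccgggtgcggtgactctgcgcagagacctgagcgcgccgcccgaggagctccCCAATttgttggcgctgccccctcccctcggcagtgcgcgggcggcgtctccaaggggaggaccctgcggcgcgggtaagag
Col1a2 (chr6:4505368-4505667, plus strand): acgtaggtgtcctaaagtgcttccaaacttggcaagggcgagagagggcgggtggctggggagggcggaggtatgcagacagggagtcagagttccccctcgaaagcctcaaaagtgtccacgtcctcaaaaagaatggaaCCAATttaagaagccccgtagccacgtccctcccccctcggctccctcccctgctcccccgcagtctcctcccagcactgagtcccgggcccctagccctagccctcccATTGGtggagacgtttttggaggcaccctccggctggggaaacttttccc
Col3a1 (chr1:45311288-45311587, plus strand): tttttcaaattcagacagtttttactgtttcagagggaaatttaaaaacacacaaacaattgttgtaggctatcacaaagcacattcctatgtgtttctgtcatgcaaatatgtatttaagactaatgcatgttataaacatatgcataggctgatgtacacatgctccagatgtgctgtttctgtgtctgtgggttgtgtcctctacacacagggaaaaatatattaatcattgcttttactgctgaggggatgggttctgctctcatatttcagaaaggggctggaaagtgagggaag
The Col4a1 and Col4a2 windows share 78 bases, read on opposite strands. CCAAT or ATTGG begins at -145 in Col4a1, at -32 in Col4a2, and at -109 and 0 in Col1a2, counted from the start site, and these letters are not in the Col3a1 window. The table held windows for 33 of the 42 genes (36 windows), of which 11 had a match, and 37.4% of the 32851 promoters in the whole table had one. GC content was 74.0% and 73.7% in the Col4a1 and Col4a2 windows, 61.0% in Col1a2 and 37.7% in Col3a1. A match is a sequence description and no evidence of binding.

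Collagen transcripts took very different shares of a cell's RNA in different cell types. In F13a1 Igfbp2 Stc1 fibroblasts they were 5.95% (5.91 to 5.99) in control and 6.51% (6.43 to 6.58) in metformin of UMIs, the highest share among the classes in both libraries. Aldh3a1 Cyp2f2 Cpz fibroblasts followed with 4.15% and 5.15%, Coch Tagln Dkk2 fibroblasts with 3.70% and 3.59%, Smpd3 Inmt Sfrp4 fibroblasts with 1.93% and 2.20% and Cxcl12 Pltp Alpl fibroblasts with 1.88% and 3.43%. Dermal sheath cells had 2.07% (2.04 to 2.10) in control and 4.63% (4.61 to 4.66) in metformin. Papilla cells, although of the same mesenchymal lineage as the fibroblasts, were far lower, at 0.676% and 0.717% in the Hhip cluster and 0.409% and 0.498% in the Notum cluster. Pericytes had 0.379% and 0.445%, vascular endothelium 0.239% and 0.220%, hair follicle stem or germ cells 0.0555% and 0.0897% and basal and other keratinocytes 0.0293% and 0.0282%. T cells, which make little collagen, served as a measure of free RNA in the droplets, and their share was 0.0334% and 0.0456%, of which a single chain, Col27a1, gave 61.4% and 45.7%. In myeloid cells the share was 0.0396% and 0.0205%, a ratio of 0.517 (0.461 to 0.579), so the level in cells that make little collagen had no single direction between the libraries. Fibroblasts held 91.8% of the collagen UMIs of the control library and 63.2% of those of the metformin library, and the dermal sheath held 4.11% and 28.9%.

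**Figure D1:**
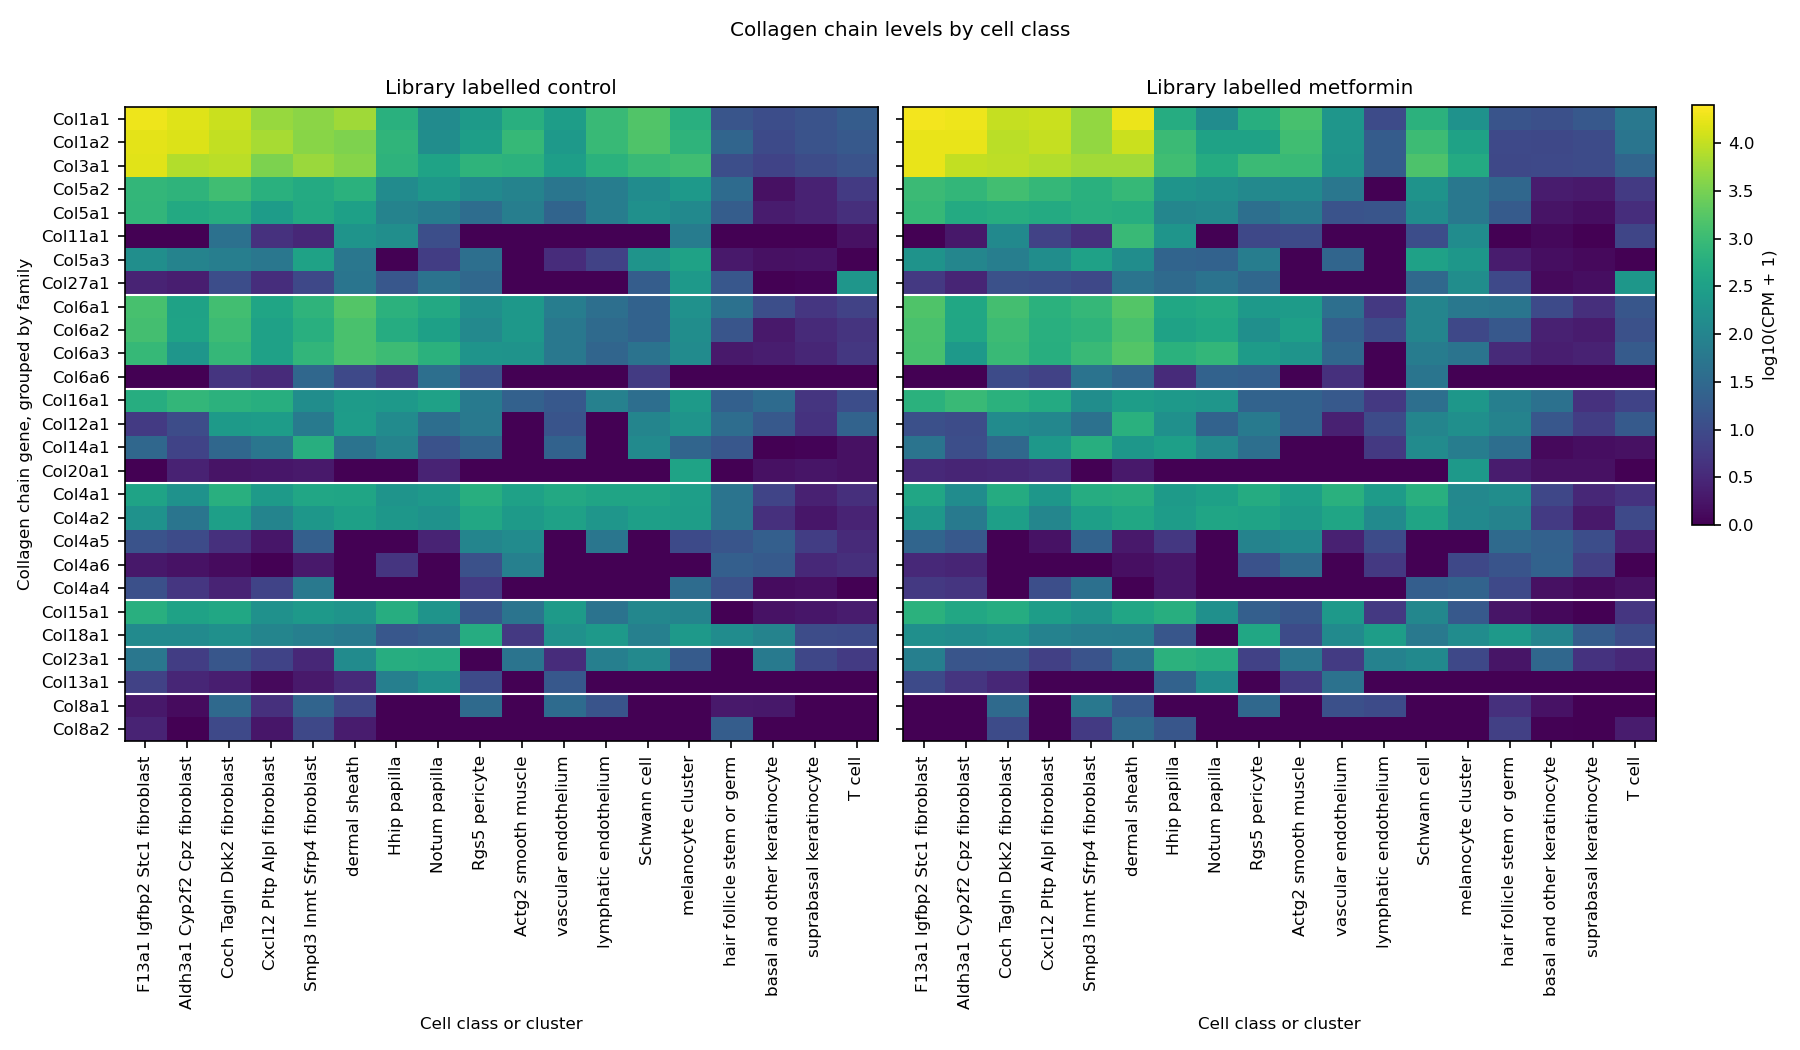
Level of the 27 collagen chains with at least 100 UMIs (rows, grouped by family, white lines between families) in 18 cell classes or clusters (columns), as log10(CPM + 1), in the libraries labelled control (left) and metformin (right). Col1a1, Col1a2 and Col3a1 are bright in the 5 fibroblast clusters and the sheath, Col4a1 and Col4a2 run through the stroma, vessels and glia, and Col23a1 stands out in the papilla clusters.

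The mix of families changed along with the total. Fibrillar chains made up 94.1% and 94.5% (control and metformin) of collagen UMIs in Aldh3a1 Cyp2f2 Cpz fibroblasts and 79.3% and 79.1% in Smpd3 Inmt Sfrp4 fibroblasts, the highest and the lowest of the 5 fibroblast clusters. In the papilla, beaded filament chains took 32.9% and 19.9% of collagen UMIs in the Hhip cluster and 35.4% and 35.0% in the Notum cluster, against 5.50% and 5.95% in all fibroblasts. Transmembrane chains took 9.25% and 9.82% and 16.1% and 13.8% there, against 0.0435% and 0.0492% in fibroblasts. Basement membrane chains took 33.0% and 45% in vascular endothelium and 29.5% and 21.4% in pericytes. Multiplexins were the leading family of basal and other keratinocytes, with 31.5% and 33.8%, and fibrillar chains had 9.46% and 10.9%.

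**Figure D2:**
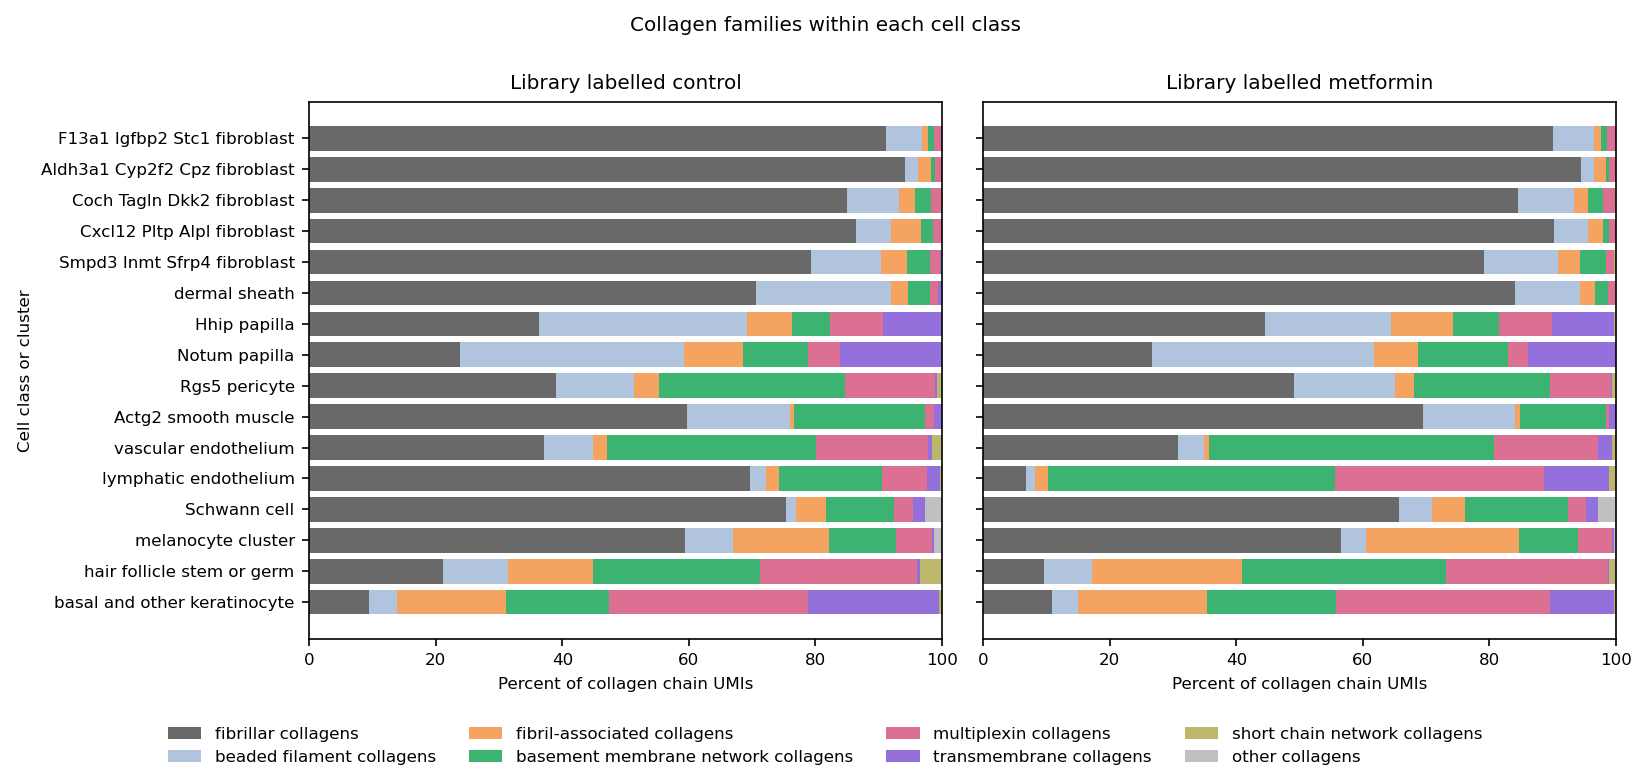
Share of collagen chain UMIs (percent, horizontal axis) in each of 8 collagen families, stacked from 0 to 100, for 16 cell classes or clusters in the libraries labelled control (left) and metformin (right). Fibrillar chains fill most of the bar in fibroblasts and sheath. They give way to beaded filament and transmembrane chains in the papilla, and to basement membrane chains and multiplexins in vessels. In basal and other keratinocytes they give way to multiplexins.

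Fibrillar chains came first in amount. Col1a1 and Col1a2 encode collagen I, the bulk of the dermal fibril. In F13a1 Igfbp2 Stc1 fibroblasts Col1a1 lay at 19604 CPM in the control library and 20623 CPM in the metformin library, in Aldh3a1 Cyp2f2 Cpz fibroblasts at 15154 and 19269.9 CPM, and in Smpd3 Inmt Sfrp4 fibroblasts at 4246 and 4874 CPM. The fibroblast clusters thus spanned more than a 4-fold range of Col1a1 in both libraries. Col1a2 lay at 16814 and 17750.0 CPM in the first of these clusters and 4171 and 4807 CPM in the last. Col3a1, whose product is prominent in fine fibrils, lay at 16019 and 18167 CPM in F13a1 Igfbp2 Stc1 fibroblasts, 8637 and 9162 CPM in Coch Tagln Dkk2 fibroblasts and 3451 and 7832 CPM in Cxcl12 Pltp Alpl fibroblasts. T cells gave 18.2 and 57.4 CPM for Col1a1 and 12.3 and 25.9 CPM for Col3a1, a rough measure of the free RNA in these libraries. The metformin Col1a1 value leans on a single cell, as given below. In the second largest T cell cluster Col1a1 lay at 11.4 and 39.9 CPM. Within a fibroblast cluster single cells also differed widely. Among F13a1 Igfbp2 Stc1 fibroblasts the median cell had a Col1a1 level per 10000 UMIs of 149.8 (quartiles 83.4 and 233) in control and 160.1 (quartiles 94 and 261) in metformin. The middle cells of the Smpd3 Inmt Sfrp4 cluster lay well below these, with a median of 24.9 (quartiles 13.2 and 51.8) in control and 37.3 (quartiles 18.3 and 62.1) in metformin.

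The minor fibrillar chains were distributed differently. Col5a1 and Col5a2 encode collagen V, which sets the diameter of collagen I fibrils. Col5a2 was highest in Coch Tagln Dkk2 fibroblasts (1119 and 1173 CPM), and Col5a1 in F13a1 Igfbp2 Stc1 fibroblasts (778 and 880.0 CPM). Col5a3, the third collagen V chain, was low in most fibroblast clusters but lay at 339 and 323 CPM in Smpd3 Inmt Sfrp4 fibroblasts and 189 and 329 CPM in Schwann cells. Col11a1, best known from cartilage fibrils, was highest in the sheath. It lay at 189 and 961 CPM in the dermal sheath, 149 and 197 CPM in the Hhip papilla and 42.7 and 122 CPM in Coch Tagln Dkk2 fibroblasts, and had 0 and 1 UMIs in Aldh3a1 Cyp2f2 Cpz fibroblasts. Its partner Col11a2 had 10 control and 30 metformin UMIs in all cells together. Col27a1, another fibrillar chain of cartilage, was highest outside the stroma: in the largest T cell cluster it lay at 306 and 367 CPM, and after thinning each cell to 1500 UMIs 37.4% and 45% of its cells had a UMI (control and metformin), against 0% and 0% of basal and other keratinocytes. Median depth before thinning was 2317 and 2327 UMIs in the T cells. In the second largest T cell cluster (207 and 299 cells) Col27a1 had 0 UMIs in both libraries. In the smallest T cell cluster (14 and 23 cells) it lay at 171 and 185 CPM. Among the classes the melanocyte cluster was highest in control and T cells as a whole in metformin. In fibroblasts Col27a1 lay at 4.54 and 8.05 CPM, below the T cells as a whole in both libraries. Col24a1 had 97 UMIs in both libraries together and was highest in Schwann cells (89.8 and 89.8 CPM, from 19 and 9 UMIs).

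The ratio of partner chains depended on the cell type. Col1a1 to Col1a2 was 1.02 (0.975 to 1.06) in control and 1.01 (0.964 to 1.07) in metformin in Smpd3 Inmt Sfrp4 fibroblasts. In the dermal sheath it was 1.69 (1.61 to 1.76) in control and 1.65 (1.62 to 1.67) in metformin, above each of the fibroblast clusters in both libraries. In the Hhip papilla it was 0.809 (0.655 to 0.998) in control and 0.533 (0.484 to 0.587) in metformin. A large part of the control Col1a1 UMIs there came from a single cell, as given below, which the interval does not cover. In Cxcl12 Pltp Alpl fibroblasts Col1a1 to Col1a2 was 0.812 (0.796 to 0.827) in control and 1.06 (1.04 to 1.09) in metformin. Col3a1 to Col1a1 was 0.511 and 0.505 (control and metformin) in Aldh3a1 Cyp2f2 Cpz fibroblasts and 1.31 and 1.27 in Smpd3 Inmt Sfrp4 fibroblasts. The head-to-head pair did not keep a fixed ratio either. Col4a1 to Col4a2 was 3.41 (2.84 to 4.12) in control and 2.13 (1.59 to 2.90) in metformin in Aldh3a1 Cyp2f2 Cpz fibroblasts, 0.911 (0.611 to 1.36) in control and 0.915 (0.781 to 1.07) in metformin in the Hhip papilla and 1.21 (1.03 to 1.43) in control and 1.32 (1.21 to 1.45) in metformin in the dermal sheath. The intervals of the first 2 did not overlap in either library. Col6a1 to Col6a2, 2 of the 3 usual chains of collagen VI, varied less among fibroblasts and sheath, from 0.977 and 1.04 in Aldh3a1 Cyp2f2 Cpz fibroblasts to 1.24 and 1.22 in the sheath, but was 3.15 (1.66 to 6.41) in control and 3.26 (2.26 to 4.79) in metformin in hair follicle stem or germ cells. Col6a3 to Col6a1 was 0.582 and 0.551 in Aldh3a1 Cyp2f2 Cpz fibroblasts and 1.52 (1.26 to 1.85) in control and 1.56 (1.39 to 1.75) in metformin in the Hhip papilla. The ratios compare UMIs of 2 genes whose capture may differ, so a ratio of 1 has no special standing and the comparison is between cell types.

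**Figure D3:**
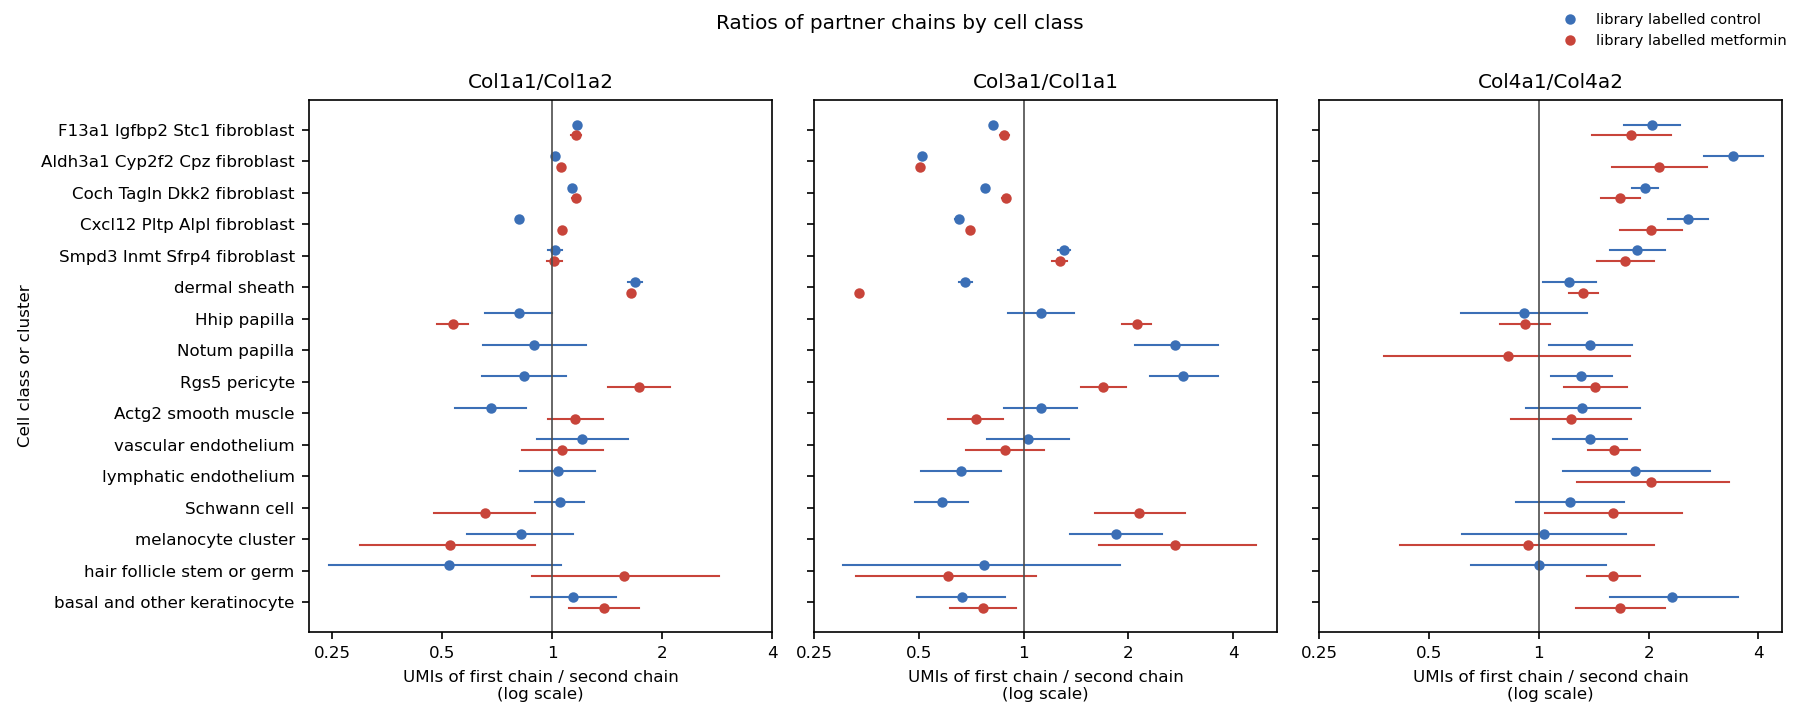
Ratio of UMIs of 2 partner chains (horizontal axis, log scale) by cell class or cluster, for Col1a1/Col1a2, Col3a1/Col1a1 and Col4a1/Col4a2, control in blue and metformin in red. Lines are 95% exact conditional binomial intervals for counting error, and pairs with under 10 UMIs of either chain are not drawn. The sheath has the highest Col1a1/Col1a2 ratio among fibroblast, sheath and papilla clusters in control (1.69), and Col4a1/Col4a2 runs from 0.911 in the Hhip papilla to 3.41 in Aldh3a1 Cyp2f2 Cpz fibroblasts in control.

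Col6a1, Col6a2 and Col6a3, the beaded filament chains, assemble into collagen VI. These 3 were highest in the dermal sheath, where Col6a1 lay at 1672 CPM in the control library and 1694 CPM in the metformin library, Col6a2 at 1351 and 1385 CPM and Col6a3 at 1353 and 1638 CPM. F13a1 Igfbp2 Stc1 fibroblasts had 1293 and 1543 CPM of Col6a1 and 1195 and 1374 CPM of Col6a2. Aldh3a1 Cyp2f2 Cpz fibroblasts, rich in collagen I, had the lowest Col6a3 of the fibroblast clusters, 202 and 230.0 CPM, against 886 and 1306 CPM in F13a1 Igfbp2 Stc1 fibroblasts. In the Hhip papilla Col6a3 lay at 1020.4 and 654 CPM and in the Notum papilla at 646 and 826 CPM. Col6a6 was sparse, at 28.5 and 47.0 CPM in Smpd3 Inmt Sfrp4 fibroblasts and, from 23 and 1 UMIs, 39.7 and 22.9 CPM in the Notum papilla. Col6a5 had 32 UMIs in both libraries together, of which 3 control and 20 metformin UMIs were in Rgs5 pericytes.

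Basement membrane chains were used in pairs that differed between vessels, smooth muscle, epithelium and fibroblasts. Col4a1 and Col4a2 were present in stroma, vessels and glia: Col4a1 lay at 566 and 499 CPM in pericytes, 457 and 609 CPM in vascular endothelium, 373 and 589 CPM in Schwann cells and 601 and 499 CPM in Coch Tagln Dkk2 fibroblasts, and at 7.02 and 7.58 CPM in basal and other keratinocytes. Col4a5 and Col4a6, neighbours on the X chromosome whose products enter a second collagen IV network, were highest in the smooth muscle cluster, with 131 and 124 CPM for Col4a5 and 83.1 and 32.1 CPM for Col4a6. The smooth muscle cluster was small (33 and 35 cells), so its metformin Col4a6 level rests on few UMIs and its rank there was not tested. Col4a5 lay at 101 and 90.5 CPM in pericytes, where Col4a6 was at 11.5 and 12.1 CPM. In basal and other keratinocytes both had low levels, 20.2 and 21.9 CPM and 16.7 and 22.9 CPM, above the 5.28 and 9.998 CPM and 2.15 and 5.73 CPM of suprabasal keratinocytes. Col4a3 and Col4a4, a head-to-head pair best known from the kidney glomerulus, were highest in Smpd3 Inmt Sfrp4 fibroblasts, at 19.3 and 7.83 CPM and 59.0 and 40.7 CPM, from 19 and 5 UMIs and 58 and 26 UMIs. The short chain network collagen Col8a1, found in vessel walls and the cornea, was spread over several classes. Its highest level was in vascular endothelium in control and in Smpd3 Inmt Sfrp4 fibroblasts in metformin. It lay at 31.4 and 32.1 CPM in Coch Tagln Dkk2 fibroblasts and 32.1 and 30.2 CPM in pericytes.

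Fibril-associated chains differed widely among the fibroblast clusters. Col16a1 was broad, with 809 and 962 CPM in Aldh3a1 Cyp2f2 Cpz and 142 and 141 CPM in Smpd3 Inmt Sfrp4 fibroblasts. Col14a1, which binds collagen I fibrils, ran the other way: it lay at 578 and 584 CPM in Smpd3 Inmt Sfrp4 fibroblasts and at 6.64 and 10.4 CPM in Aldh3a1 Cyp2f2 Cpz fibroblasts. Col12a1, which responds to tension in connective tissue, lay at 265 and 109 CPM in Cxcl12 Pltp Alpl fibroblasts, 247 and 129.7 CPM in Coch Tagln Dkk2 fibroblasts and 269.7 and 621 CPM in the dermal sheath, and at 4.49 and 11 CPM in F13a1 Igfbp2 Stc1 fibroblasts. Col20a1 was highest in the melanocyte cluster, with 41 and 30 UMIs of 76 and 65 in all cells, and these UMIs sat in 3 of 50 control cells and 4 of 41 metformin cells. The marker sum of Schwann cells or glia in that cluster was 4620 and 3227 CPM, beside 6328 and 19129 CPM for melanocyte markers, so that cluster holds genes of both.

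Multiplexins and transmembrane chains picked out vessels, epidermis and papilla. Col18a1, whose C-terminal piece is endostatin, lay at 525 and 410.3 CPM in pericytes, 228 and 282 CPM in lymphatic endothelium, 138 and 229 CPM in hair follicle stem or germ cells and 91.4 and 95.0 CPM in basal and other keratinocytes, against 9.69 and 17.8 CPM in suprabasal keratinocytes. Col15a1, the other multiplexin, was nearly absent from basal and other keratinocytes (0.653 and 0.221 CPM). It lay at 551 and 582 CPM in the Hhip papilla, 596 and 641 CPM in F13a1 Igfbp2 Stc1 fibroblasts and 252 and 233 CPM in vascular endothelium. Col23a1, a transmembrane collagen, was highest in the papilla. It lay at 547 CPM in the control library and 680.1 CPM in the metformin library in the Hhip cluster and 499 and 551 CPM in the Notum cluster, against 12.3 and 17.1 CPM in fibroblasts and 130.1 and 43.3 CPM in the sheath. A Col23a1 UMI was found in 81.2% of control cells and 85.8% of metformin cells of the Hhip cluster (median depths 3181 and 3979 UMIs). After thinning to 1500 UMIs, without 2 and 2 shallower cells, the shares were 51.3% and 61.3%, while T cells (median depths 2311 and 2245.5 UMIs) had 0.353% and 0%. Col13a1 joined it in the Notum papilla, at 159 and 138 CPM, and lay at 78.2 and 23.0 CPM in the Hhip papilla. The third transmembrane chain, Col25a1, had 15 UMIs in both libraries together.

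The 15 chains with under 100 UMIs were Col24a1 (97), Col28a1 (78), Col4a3 (51), Col26a1 (43), Col9a3 (41), Col11a2 (40), Col6a5 (32), Col9a2 (24), Col25a1 (15), Col6a4 (11), Col9a1 (9), Col2a1 (5), Col19a1 (5), Col22a1 (4) and Col10a1 (1), with the UMIs of both libraries in parentheses. Col28a1, a chain known from peripheral nerve, had 34 and 15 UMIs in Schwann cells (161 and 149.7 CPM). Col2a1, Col9a1 and Col10a1, chains of cartilage, were at or near the level of single UMIs in every class, and differences between classes were not detectable at this depth.

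The next comparison was between the libraries, within each class. A chain counts as higher or lower when its metformin over control ratio is at least 1.5 or at most 1/1.5 among genes with at least 20 UMIs in the class. In all fibroblasts, 6 of 28 chains with enough UMIs were higher in metformin and 1 was lower, where 7.56% of all 12151 genes were higher and 7.31% lower. The median log2 ratio was 0.33 over these chains and 0.04 over all genes. Most abundant chains lay between these limits. Col1a1 lay at 10572 CPM in the control library and 12668 CPM in the metformin library, a ratio of 1.2 (1.19 to 1.21), and Col3a1 7224 and 9312 CPM, a ratio of 1.29 (1.27 to 1.30). Col14a1 lay higher in metformin (76.3 and 154 CPM, ratio 2.01, 1.83 to 2.22), as did Col11a1 (11.8 and 36.1 CPM, ratio 3.06, 2.44 to 3.84) and Col6a6 (4.11 and 10.4 CPM, ratio 2.53, 1.68 to 3.82). Col12a1 lay lower, 153 and 76.9 CPM, a ratio of 0.504 (0.450 to 0.562). Its ratio was 0.413 in Cxcl12 Pltp Alpl, 0.526 in Coch Tagln Dkk2 and 0.670 in Smpd3 Inmt Sfrp4 fibroblasts, lower in the first 2 and just inside the limit in the last. For Col14a1, within Smpd3 Inmt Sfrp4 fibroblasts, where its level was highest, the ratio was 1.01 (0.885 to 1.15). That cluster made up 334 of 4020 control and 210 of 1472 metformin fibroblasts. In Cxcl12 Pltp Alpl fibroblasts Col14a1 was higher in metformin, as given below. The part of each cluster in the ratio of all fibroblasts was not tested.

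Of the 5 fibroblast clusters, Cxcl12 Pltp Alpl differed most between the libraries. There 13 of 20 chains were higher in metformin and 1 lower, where 9.83% of all genes were higher and 14.4% lower, and the median log2 ratio was 0.75 over the chains and -0.03 over all genes. Col1a1 lay at 5309 CPM in the control library and 11130.0 CPM in the metformin library, a ratio of 2.10 (2.05 to 2.14). Col3a1 was at 3451 and 7832 CPM (2.27, 2.21 to 2.33), Col5a3 at 55.6 and 143 CPM (2.57, 2.11 to 3.12) and Col14a1 at 51.5 and 219 CPM (4.25, 3.54 to 5.10). The 3 collagen VI chains had ratios of 1.70 to 1.84, whereas Col4a1 (0.857, 0.752 to 0.974), Col4a2 (1.09, 0.894 to 1.31), Col16a1 (0.873, 0.802 to 0.949) and Col18a1 (0.890, 0.726 to 1.09) stayed between the limits. The median cell gave collagen a share of its UMIs (percent) of 1.17 (quartiles 0.665 and 2.14) in control and 2.72 (quartiles 1.81 and 4.30) in metformin, so the higher level was also that of the middle cells. At a finer resolution, chosen after the data were seen, most of its cells fell into 2 clusters. In cells led by Tnc, Timp1 and Serpina3n (851 control and 113 metformin cells) the collagen ratio was 1.19 (1.17 to 1.22) and the Col1a1 ratio 1.26 (1.21 to 1.31), and in cells led by Lbp, Cxcl12 and Ifi205 (387 control and 220 metformin cells) they were 2.24 (2.20 to 2.28) and 2.63 (2.55 to 2.72). The ratio of the whole cluster, 1.82 (1.80 to 1.85), lies between these, and the libraries hold the 2 kinds of cell in unlike proportions.

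In the other 4 clusters few chains differed. In Aldh3a1 Cyp2f2 Cpz fibroblasts 3 of 18 chains were higher and 0 lower (7.88% and 10.6% of all genes), in Coch Tagln Dkk2 fibroblasts 3 of 23 and 1 (8.89% and 10.3%), in Smpd3 Inmt Sfrp4 fibroblasts 2 of 21 and 1 (11.1% and 9.86%) and in F13a1 Igfbp2 Stc1 fibroblasts 2 of 17 and 0 (9.56% and 11.6%). Several of these shares were near those of all genes. Col1a1 had ratios of 1.27 (1.25 to 1.29), 0.926 (0.908 to 0.944), 1.15 (1.10 to 1.2) and 1.05 (1.03 to 1.08) in the same order. Col11a1 in Coch Tagln Dkk2 fibroblasts lay at 42.7 and 122 CPM, a ratio of 2.85 (2.25 to 3.62).

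**Figure D4:**
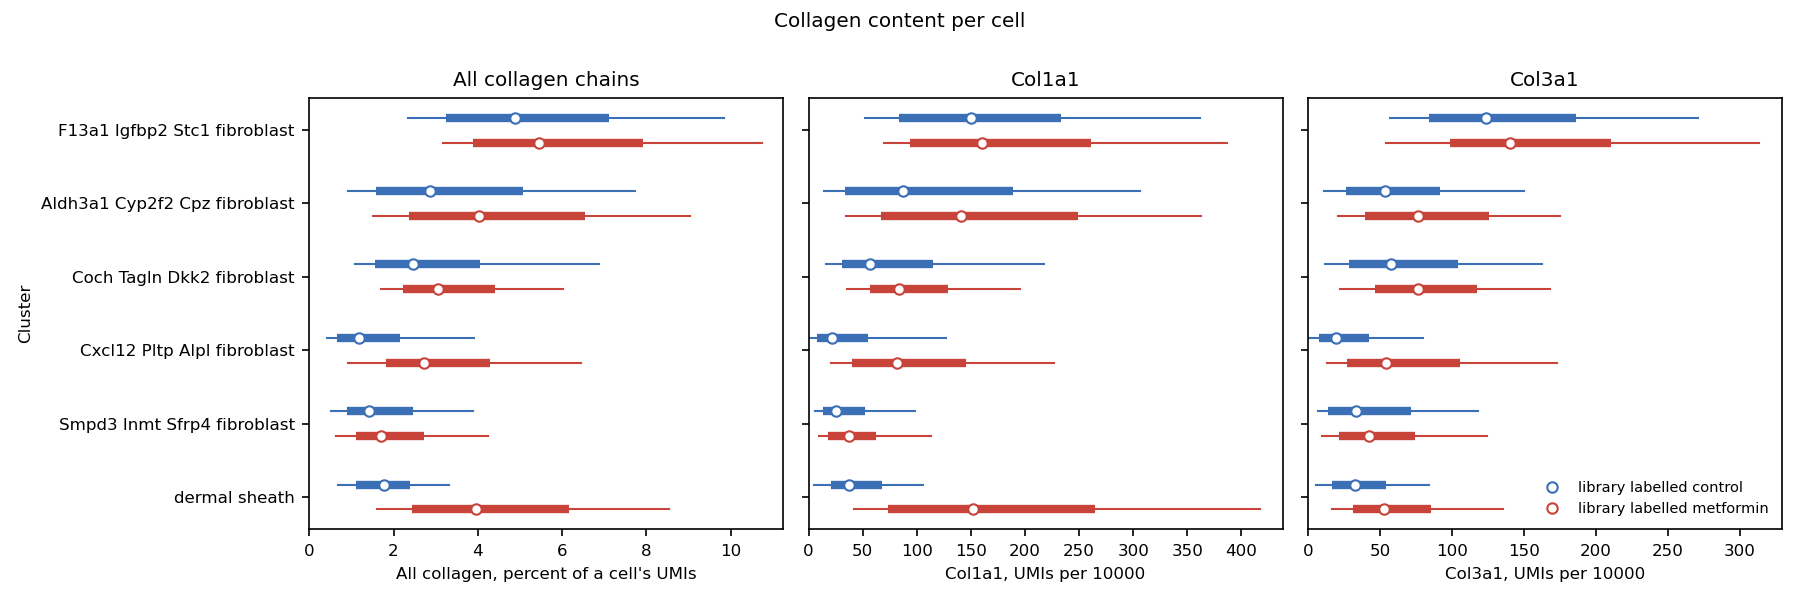
Collagen content of single cells in the 5 fibroblast clusters and the dermal sheath, control in blue and metformin in red: all collagen chains as a percent of a cell's UMIs (left), and Col1a1 (middle) and Col3a1 (right) as UMIs per 10000. Circles are medians, thick bars quartiles and thin lines the 10th to 90th percentile of cells. The medians of the libraries lie apart in the Cxcl12 Pltp Alpl fibroblasts and the sheath.

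In the dermal sheath many chains differed between the libraries. Of 23 chains with enough UMIs, 12 were higher in metformin and 1 lower, where 17.5% of all 9050 genes were higher and 20.7% lower, and the median log2 ratio was 0.66 over the chains and -0.02 over all genes. Col1a1 lay at 5861 CPM in the control library and 18698 CPM in the metformin library, a ratio of 3.19 (3.10 to 3.29), and Col1a2 at 3478 and 11358 CPM (3.27, 3.14 to 3.40). The median sheath cell had a Col1a1 level per 10000 UMIs of 37.0 (quartiles 20.4 and 67.4) in control and 152 (quartiles 73.3 and 265) in metformin, so the lower quartile in metformin lay above the upper quartile in control. Col11a1 had a ratio of 5.09 (4.33 to 6.03), with a UMI in 32.9% of control cells and 78.5% of metformin cells (median depths 3277 and 5447 UMIs) and, after thinning to 1500 UMIs, in 18.3% and 56.1%. T cells thinned the same way had 0% and 0.336%. Further chains above the limit were Col14a1 (46.5 and 209.5 CPM, 4.50, 3.24 to 6.42), Col5a3 (54.9 and 143 CPM, 2.61, 1.90 to 3.64), Col12a1 (269.7 and 621 CPM, 2.30, 1.99 to 2.66), Col15a1 (189 and 396 CPM, 2.10, 1.77 to 2.51), Col5a1 (1.79, 1.56 to 2.05) and Col3a1 (1.58, 1.52 to 1.64). Collagen VI was not among them. Col6a1 lay at 1672 and 1694 CPM, a ratio of 1.01 (0.952 to 1.08), Col6a2 had 1.03 (0.956 to 1.10) and Col6a3 1.21 (1.13 to 1.30). Col23a1, the papilla chain, was lower in the metformin sheath, 130.1 and 43.3 CPM, a ratio of 0.333 (0.248 to 0.446). The Col3a1 to Col1a1 ratio of the sheath was 0.679 (0.650 to 0.710) in control and 0.336 (0.329 to 0.342) in metformin, while its Col1a1 to Col1a2 ratio was the same in both libraries within counting error.

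Other genes of the sheath cluster also differed between the libraries, in both directions. Lrrc15 lay at 284 and 890.0 CPM (control and metformin) and Tnmd at 111 and 632 CPM. Acan lay at 76.4 and 184 CPM and Kif26b at 26.3 and 78.1 CPM. The sheath markers Tnn (395 and 41.3 CPM) and Abi3bp (94.3 and 77.1 CPM) were lower in metformin. Of the pericyte or smooth muscle markers, Acta2 (710.1 and 2731 CPM), Tagln (961 and 1417 CPM) and Mcam (40.6 and 59.4 CPM) were higher. Cspg4 (119 and 72.0 CPM), Notch3 (21.5 and 6.55 CPM), Myh11 (5.97 and 2.52 CPM) and Des (8.35 and 0 CPM) were lower. Rgs5 had 0 and 2 UMIs in the sheath, and Kcnj8, Abcc9 and Higd1b had 0 in both libraries. The summed level of all 6 sheath markers was 987 and 1903 CPM, with none at 0 in either library. The part of these genes in the collagen levels was not tested. As a check chosen after the data were seen, sheath cells with an Acan UMI (34 of 228 in control, 139 of 353 in metformin) had ratios of 2.90 (2.74 to 3.08) for Col1a1, 4.17 (3.17 to 5.60) for Col11a1 and 1.41 for Col3a1, and those without one 2.67 (2.58 to 2.77), 3.66 (2.97 to 4.54) and 1.70. Col12a1 had 2.71 (2.06 to 3.62) with an Acan UMI and 1.33 (1.10 to 1.60) without one, where it lay between the limits. Col15a1 had 1.48 (1.10 to 2.04) with an Acan UMI, between the limits, and 2.09 without one, and Col14a1 2.10 and 5.57. When the libraries were clustered apart, the collagen share ratio of the sheath was 1.45 in place of 2.24 and the Col3a1 ratio was 0.870. In that setting the cells named sheath were unlike, with Tnn, Lrrc15 and Wif1 leading in control and Lrrc15, Acan and Ednrb in metformin.

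**Figure D5:**
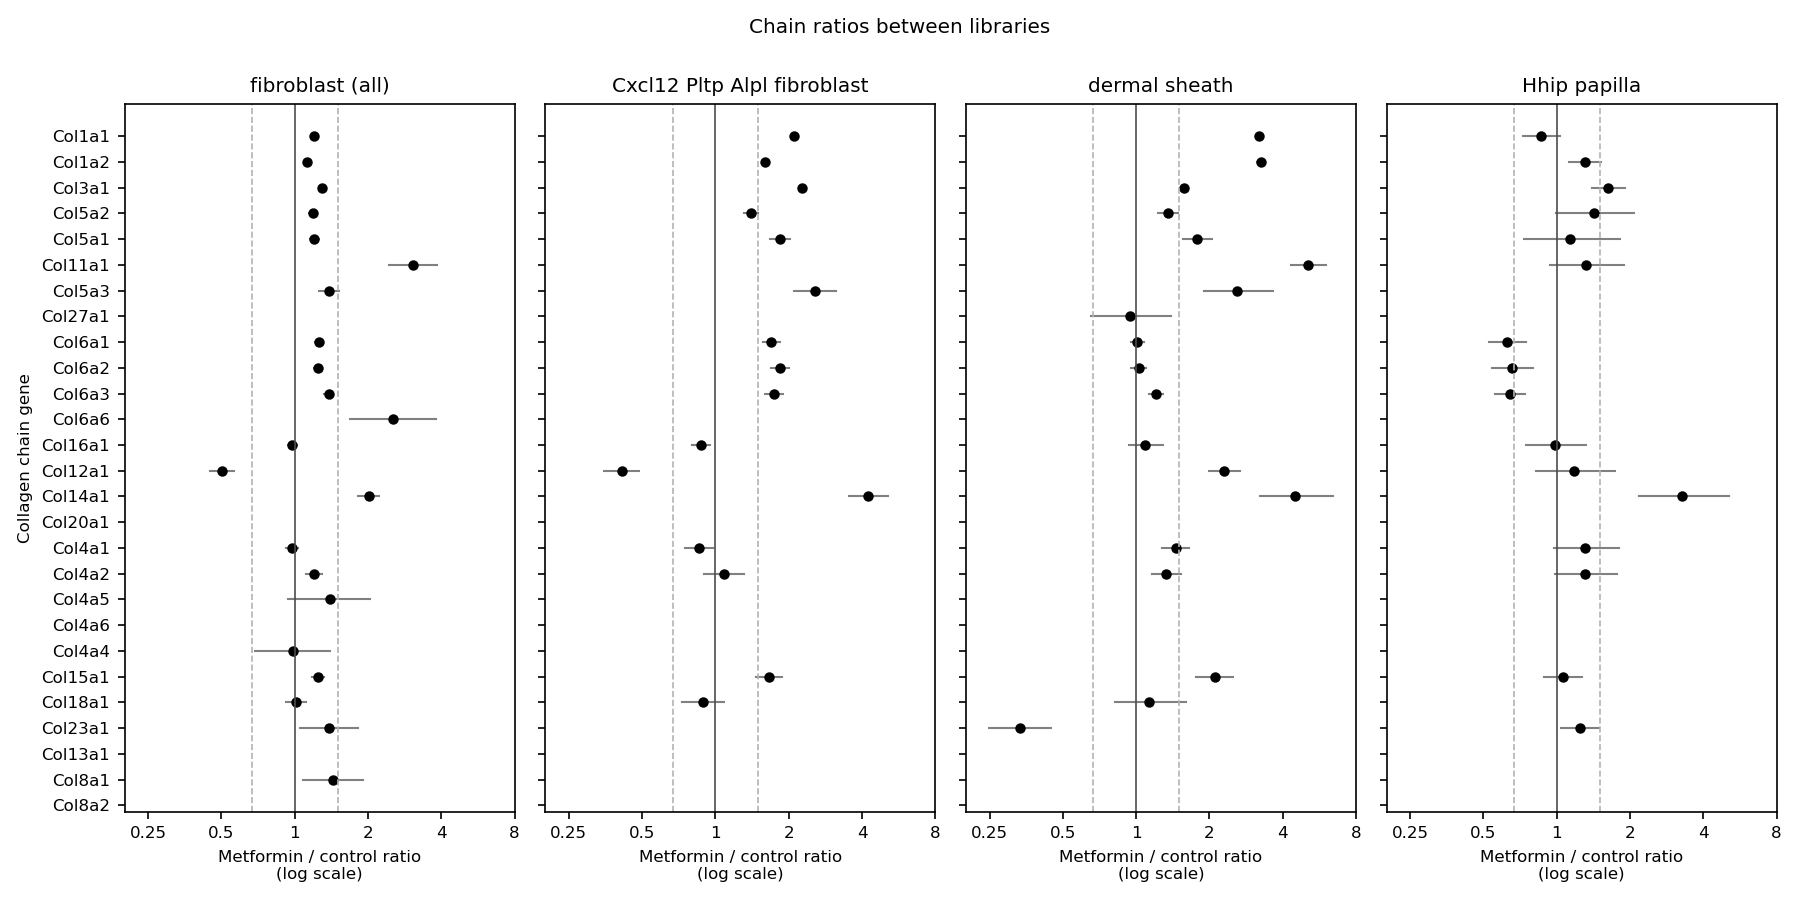
Metformin over control ratio (horizontal axis, log scale) of each collagen chain with at least 100 UMIs in the class, for all fibroblasts, Cxcl12 Pltp Alpl fibroblasts, the dermal sheath and the Hhip papilla. Points are ratios of CPM, lines 95% exact conditional binomial intervals for counting error, the solid line marks 1 and the dashed lines 1.5 and 1/1.5. Fibrillar chains lie to the right in the Cxcl12 Pltp Alpl cluster and the sheath, Col6a1 and Col6a2 lie at about 1 and Col6a3 at 1.21 in the sheath, all 3 lie to the left in the Hhip papilla, and Col12a1 lies to the left in fibroblasts and to the right in the sheath.

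In the Hhip papilla (80 control and 302 metformin cells) 4 of 20 chains were higher in metformin and 4 lower, where 25.6% of all genes were higher and 13.4% lower. Col14a1 lay at 93.1 CPM in the control library and 303 CPM in the metformin library, a ratio of 3.26 (2.17 to 5.10), and Col3a1 at 689 and 1120.0 CPM, a ratio of 1.63 (1.39 to 1.91). The collagen VI chains lay lower together: Col6a1 at 670.4 and 419 CPM (0.626, 0.527 to 0.746), Col6a2 at 529 and 348 CPM (0.658, 0.543 to 0.801) and Col6a3 at 1020.4 and 654 CPM (0.641, 0.558 to 0.738). Without the top cell of each library the ratios were 0.658 (0.550 to 0.791), 0.691 (0.565 to 0.850) and 0.681 (0.589 to 0.789), the last 2 between the limits. Marker genes of the cluster differed too. The summed level of 9 papilla markers, none at 0, was 3985 CPM in control and 8504 CPM in metformin, with Hhip at 246 and 1129.9 CPM and Wif1 at 384 and 2542 CPM. The summed level of 10 fibroblast markers (1 at 0 in control, 0 in metformin) was 1322 and 858 CPM, with Mfap4 at 655 and 207 CPM and Lum at 142 and 27.1 CPM. Their part in the collagen levels was not tested. Col23a1 (1.24, 1.04 to 1.49) and Col15a1 (1.06, 0.884 to 1.27) lay between the limits. Col1a1 lay at 614 and 530.4 CPM (0.863, 0.726 to 1.03), and 45 of 165 control and 68 of 645 metformin UMIs came from 1 cell each. The Notum papilla had 264 control and 16 metformin cells, and 3 of 17 chains were higher and 3 lower (21.3% and 24.9% of all genes). Its Col23a1 level of 499 and 551 CPM gave a ratio of 1.10 (0.696 to 1.67). In control, where both papilla clusters could be read, the Notum cluster had lower Col15a1 (188 against 551 CPM) and Col1a2 (145 against 759.7 CPM) and higher Col13a1 (159 against 78.2 CPM) than the Hhip cluster.

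In Rgs5 pericytes, 5 of 19 chains were higher in metformin and 1 lower (9.83% and 11.5% of all genes). Pericyte Col4a1 lay at 566 and 499 CPM (0.881, 0.736 to 1.05), Col4a2 at 433 and 349.9 CPM (0.808, 0.654 to 0.998) and Col18a1 at 525 and 410.3 CPM (0.782, 0.644 to 0.948), each between the limits. Col6a1 was higher, 149 and 241 CPM, a ratio of 1.62 (1.19 to 2.23). Col1a1 lay at 248 and 583 CPM, a ratio of 2.36 (1.88 to 2.97), but 1 metformin cell held 81 of its 290 UMIs, and without the top cell of each library the ratio was 2.22 (1.72 to 2.90). In the same pericytes the summed level of 10 fibroblast markers (1 at 0 in each library) was 660.2 and 227 CPM, with Dcn at 367 and 86.5 CPM. The 6 basal epidermis markers, none at 0, summed to 3679 and 4386 CPM. Most of that sum was Ifitm3 (3303 and 2820 CPM) and Dst (312 and 344 CPM). The keratins Krt5, at 29.8 and 481 CPM, and Krt14, at 29.8 and 709.9 CPM, differed far more between the libraries than the sum of these markers. Their part in the pericyte collagen levels was not tested. In the Actg2 smooth muscle cluster 1 control cell held 107 of 135 Col1a1 UMIs, so fibrillar levels there describe single cells, and 1 of 13 chains was higher and 1 lower (11% and 11.8% of all genes). Vascular endothelium had 1 of 13 chains higher and 5 lower (9.96% and 12.3% of all genes). Its basement membrane chains and Col15a1 lay between the limits. Col4a1 lay at 457 and 609 CPM (1.33, 1.11 to 1.60), Col4a2 at 331 and 379 CPM (1.14, 0.920 to 1.43) and Col15a1 at 252 and 233 CPM (0.924, 0.711 to 1.21). The lower chains included Col3a1 at 290.3 and 182 CPM (0.628, 0.481 to 0.822), and without the top cell of each library, which in metformin held 53 of 116 UMIs, its ratio was 0.402 (0.287 to 0.558). The summed level of 10 fibroblast markers without collagens, none at 0, was 866 CPM in control and 363 CPM in metformin endothelium. Of 6 measured genes on a list of abundant fibroblast transcripts such as Dcn, 5 were lower (median log2 ratio -0.98). Their part in the fibrillar levels was not tested. Lymphatic endothelium had 0 of 7 chains higher and 4 lower (13.6% and 11.4% of all genes), with Col1a1 at 965 and 8.96 CPM beside fibroblast marker sums of 1506 and 35.8 CPM (6 of 10 markers at 0 in metformin). Col4a2, a basement membrane chain, was also among the lower ones, 202 and 125 CPM, a ratio of 0.621 (0.359 to 1.07) from 31 and 28 UMIs, while Col4a1 (372 and 255 CPM) and Col18a1 (228 and 282 CPM) had ratios of 0.687 and 1.24.

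Keratinocytes used few chains, at low levels. In basal and other keratinocytes 3 of 17 chains were higher in metformin and 2 lower (5.05% and 3.64% of all genes). Col18a1 lay at 91.4 CPM in the control library and 95.0 CPM in the metformin library, a ratio of 1.04 (0.964 to 1.12). Col16a1 lay at 34.0 and 42.0 CPM (1.24, 1.09 to 1.40). Col23a1 was lower, 60.8 and 28.5 CPM, a ratio of 0.469 (0.419 to 0.526), with a UMI in 32.1% of control cells and 17.1% of metformin cells, and after thinning to 1500 UMIs in 8.85% and 5.17% (median depths 7633 and 7204.5 UMIs), above the T cell shares given above. Col1a1 (9.96 and 11 CPM) and Col3a1 (6.61 and 8.41 CPM) lay below the T cell level in both libraries. T cells were shallower (median depths 2311 and 2245.5 UMIs), so CPM of the classes are not a like measure of free RNA. Whether these keratinocyte UMIs were free RNA was not tested. T cells themselves had 6 of 10 chains higher in metformin and 0 lower (10% and 8.5% of all genes), among them Col1a1, for which 1 metformin cell held 51 of 102 UMIs. Hair follicle stem or germ cells (192 control and 495 metformin cells) had 7 of 18 chains higher and 4 lower (22% and 8.78% of all genes). Among them Col4a1 lay at 48.4 and 144 CPM (2.98, 2.20 to 4.13), Col16a1 at 21.6 and 79.0 CPM (3.65, 2.33 to 6.03), Col12a1 at 37.1 and 93.5 CPM (2.52, 1.77 to 3.69) and Col18a1 at 138 and 229 CPM (1.66, 1.37 to 2.02). Because these cells were 1.98% of the control and 5.61% of the metformin cells, sums over all keratinocytes mix the classes. In such sums, hair matrix left out, 9 of 25 chains were higher and 2 lower (8.8% and 7.06% of all genes). Col4a1 had a ratio of 3.05 there but 1.08 in basal and other keratinocytes, and Col12a1 1.75 but 0.902.

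Genes that help make, process or bind collagen were described from 3 lists of 16, 16 and 10 genes. Of all genes, 7.56% were higher and 7.31% lower in fibroblasts, 17.5% and 20.7% in the sheath, and 9.83% and 14.4% in Cxcl12 Pltp Alpl fibroblasts. In fibroblasts, 1 of 16 measured folding and modifying enzymes was higher in metformin and 1 lower (median log2 ratio 0.06, against 0.04 for all genes). Plod2, a lysyl hydroxylase, lay at 6.51 and 13.3 CPM, a ratio of 2.05 (1.46 to 2.88), whereas the collagen chaperone Serpinh1 had a ratio of 1.0 (0.977 to 1.03). Of 15 measured genes for export, processing and crosslinking 1 was higher and 0 lower, and the lysyl oxidase Lox lay at 204 and 148 CPM, a ratio of 0.726 (0.668 to 0.788). Collagen receptors had 2 of 8 higher, among them Ddr1 at 5.22 and 8.24 CPM, a ratio of 1.58 (1.04 to 2.38), and 0 lower, and the endocytic receptor Mrc2 lay at 177 and 136 CPM, a ratio of 0.766 (0.702 to 0.836). In the dermal sheath 9 of 13 folding and modifying enzymes were higher and 0 lower, with a median log2 ratio of 0.77 against -0.02 for all genes. The prolyl isomerase Fkbp10 lay at 75.2 and 184 CPM, a ratio of 2.45 (1.87 to 3.26). Serpinh1 was at 1077 and 2043 CPM, a ratio of 1.90 (1.76 to 2.04), the collagen galactosyltransferase Colgalt1 at 50.1 and 95.2 CPM, a ratio of 1.90 (1.35 to 2.72) and the prolyl hydroxylase family gene P3h3 at 54.9 and 98.2 CPM, a ratio of 1.79 (1.29 to 2.52). Of 13 measured export, processing and crosslinking genes in the sheath 4 were higher and 1 lower. Pcolce, an enhancer of procollagen cleavage, lay at 309 and 780.2 CPM, a ratio of 2.52 (2.21 to 2.89). Sec23a, a component of the export coat, was at 31.0 and 72.0 CPM, a ratio of 2.32 (1.52 to 3.67), Lox at 66.8 and 153 CPM, a ratio of 2.28 (1.71 to 3.09) and Loxl1 at 90.7 and 59.9 CPM, a ratio of 0.661 (0.491 to 0.893). Of 6 measured receptors 3 were higher and 0 lower, and of the 7 abundant fibroblast transcripts other than collagens 3 were higher, among them Sparc at 3296 and 9637 CPM, a ratio of 2.92 (2.81 to 3.04) and Mfap5 at 100.3 and 459.9 CPM, a ratio of 4.59 (3.67 to 5.81). In Cxcl12 Pltp Alpl fibroblasts, where 13 of 20 chains were higher, 1 of 12 folding and modifying enzymes was higher and 0 lower, with a median log2 ratio of 0.17, and P3h1 lay at 32.4 and 49.5 CPM, a ratio of 1.53 (1.13 to 2.05). Whether the enzymes differed between the sheath and these fibroblasts was not tested.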

How the data were processed

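Skin of C57BL/6 mice was profiled by droplet 3′ single-cell RNA sequencing, with 1 library per agent. The deposited matrices hold unnormalised UMI counts for each gene in each barcode. Per the file headers they were written by Cell Ranger 4.0.0, and the submitters' processing notes name the build GRCm38. Other settings were not given in the sources used here. The library labelled control had 12108 barcodes (71345558 UMIs) and that labelled metformin 12092 (92341365 UMIs), with 41 barcode sequences in both, 27 of them among kept barcodes. The label text on extraction names another species, whereas the gene identifiers are those of mouse.

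Kept barcodes (9922 and 9114) had 300 to 3000 genes, 800 UMIs or more and no more than 8% of counts from mitochondrial genes. Scrublet (scanpy 1.11.5, expected doublet rate 8%) then removed 2.36% and 3.15% of them. Log-scaled counts of 2000 variable genes without collagens gave 30 components, and cells sharing at least 3 of 20 neighbours were clustered by Leiden (leidenalg 0.10.2) at resolution 1, without correction between libraries. A cluster took the name of the cell type, of 24 listed, with at least 3 detected markers and the highest mean fold. Where that type was epithelial, with a low mean fold and no marker among the top genes, the cluster was named keratinocyte. Basal and other keratinocytes hold such clusters together with those named basal epidermis. Counts were summed per class and library. Intervals are exact at 95%. Shares of cells were also taken after thinning to 1500 UMIs, without shallower cells. Values are printed for chains with at least 100 UMIs, and of the pathway lists for up to 4 genes with the largest ratios and at least 100 UMIs. Fibroblast clusters carry the 3 genes with the highest fold in at least 25% of cells. Serpinh1 in fibroblasts was named after its value was seen, as were chains below 100 UMIs in a class.

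Members, lists and markers were chosen with earlier results of these data known. Alternatives were another cell filter, doublets kept, collagens in the clustering, libraries clustered apart, resolution 2, means over cells, CPM without collagen counts, a minimum of 5 UMIs and unthinned shares. Intervals and folds were tried on simulated independent counts, which hold no spread between cells or animals. That trial therefore cannot tell how the intervals behave where 1 cell holds many UMIs. Scripts ran in Python 3.11.15 with scikit-learn 1.9.0, scipy 1.17.1 and numpy 2.4.6.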

Additional observations from a re-analysis of the deposited data

Results flagged for a closer look

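Among 6 classes (all fibroblasts, dermal sheath, Hhip papilla, Rgs5 pericytes, vascular endothelium and keratinocytes without hair matrix) the metformin over control ratio of 3 chains with at least 100 UMIs lay past 1.5-fold in opposite directions. The difference between the cell types was not tested, since each library is single. Col3a1 had a ratio of 1.58 in the dermal sheath and 1.63 in the Hhip papilla and of 0.628 in vascular endothelium. In endothelium 1 metformin cell held 53 of 116 Col3a1 UMIs, and without the top cell of each library the ratio was 0.402 (0.287 to 0.558). Col6a1 had a ratio of 1.62 in Rgs5 pericytes and 0.626 in the Hhip papilla. Col12a1 had a ratio of 2.30 in the dermal sheath and 1.75 in keratinocytes without hair matrix, and 0.504 in fibroblasts. In sheath cells without an Acan UMI the Col12a1 ratio was 1.33 (1.10 to 1.60). The keratinocyte value of Col12a1 pools classes, with 0.902 in basal and other keratinocytes and 2.52 in hair follicle stem or germ cells. Lymphatic endothelium was not among the 6 classes. There Col1a1 had a ratio of 0.00928 (0.00111 to 0.0341) from 148 and 2 UMIs and Col1a2 of 0.0192 (0.00517 to 0.0503) from 143 and 4 UMIs, against 3.19 and 3.27 in the sheath. The 148 control Col1a1 UMIs sat in 6 of 65 cells, with 56 in 1 cell. The 143 control Col1a2 UMIs sat in 7 cells, with 54 in 1 cell. The intervals do not cover such spread between cells. Fibroblast markers were also lower in metformin lymphatic cells, as given above, and their part was not tested.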

How the results depend on the processing

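No paired analysis was possible because each agent has 1 library. The metformin over control ratio of the collagen share was above 1 in each setting run for fibroblasts, sheath, papilla, pericytes or smooth muscle, and keratinocytes, each pooled over clusters. The papilla pools clusters held in opposite proportions (1.06 in Hhip, 1.22 in Notum), and the keratinocyte direction turns within basal and other keratinocytes (0.964) and upper hair follicle (0.712). With the wider filter (no upper gene limit, up to 20% mitochondrial counts) it moved to 1.14 in fibroblasts (from 1.19), 2.09 in the sheath (from 2.24), 1.52 in the papilla (from 1.44) and 1.10 in pericytes or smooth muscle (from 1.23). With doublets kept it was 1.21 in fibroblasts, 2.19 in the sheath, 1.17 in pericytes or smooth muscle, 0.787 in vascular endothelium (from 0.920) and 1.44 in keratinocytes (from 1.35). With libraries clustered apart it was 1.23 in fibroblasts, 1.45 in the sheath, 1.5 in the papilla and 1.18 in keratinocytes, and at resolution 2 it was 1.45 in keratinocytes. As a mean over cells it was 1.28 in fibroblasts, 2.33 in the sheath, 1.58 in the papilla, 1.31 in pericytes or smooth muscle and 1.03 in vascular endothelium. Chains lower in fibroblasts were 2 in place of 1 with libraries clustered apart, at resolution 2, and with a minimum of 5 UMIs. Col3a1 in the sheath turned from 1.58 to 0.870 with libraries clustered apart, which changes the cells compared. The chain ratios run in these settings were those of pooled classes, without the single fibroblast, papilla and pericyte clusters. Of 224 values for the 32 such ratios past 1.5-fold, 220 stayed past it in the same direction. The other exceptions were Col3a1 in the sheath (1.43) and Col1a1 in pericytes or smooth muscle (1.39) with the wider filter, and Col5a1 in the sheath (1.19) with libraries clustered apart. Where no cause is given, the cause was not tested.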
